A study of Mus musculus with 12 samples.

Results

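HIF1A peaks were called in 85 regions at both oxygen levels in N1E115 cells without a peak in any of 4 ARNT lists. N1E115 is a mouse neuroblastoma line, and the labels call these cells positive for NOS1, the neuronal nitric oxide synthase. The cells were cultured for 3 days at 20% or 4% O2, with 5% CO2 and at ambient barometric pressure in either case. Chromatin was immunoprecipitated with an antibody to HIF1A or to ARNT and sequenced (ChIP-seq). Each antibody and oxygen level had 2 samples with a deposited peak list each, and 2 input samples per oxygen level served the authors as background. Peak lists carry no expression values, so the cell type was not checked against markers. The labels do not say whether the samples of a group came from separate cultures.

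The 85 regions were chosen from the peak lists themselves. Peaks of an antibody and oxygen level were merged, and a merged region counted as reproducible where peaks of its 2 lists overlapped by at least 1 bp. Of 12710 such HIF1A regions of 4% O2, 2641 (20.8%) overlapped one of the 4537 HIF1A regions of 20% O2. Of these 2641, 90 had no peak in the 2 ARNT lists of 4% O2 or the 2 of 20% O2. An ARNT peak lay in 90.2% of all 12710 regions. Another 5 of the 90 lay within 1 kb of a tRNA gene and were left out. The 85 regions that remained are 0.669% of the HIF1A regions of 4% O2. The HIF1A replicate 2 lists give single positions of 1 bp, which were widened by 100 bp on each side. Without widening, 80 regions met the rule, and all 80 were among the 85. Because peak calls chose these regions, their HIF1A scores and the lack of ARNT peaks are given as a description, with no test.

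HIF1A is the subunit of the transcription factor HIF-1 that oxygen controls. Prolyl hydroxylases mark it for degradation when oxygen is plentiful, and it accumulates when oxygen is scarce. It binds DNA as a dimer with ARNT, also called HIF1B, which is present at any oxygen level. The dimer recognises hypoxia response elements, whose core reads ACGTG or GCGTG. A HIF1A region without ARNT is thus a site at which the peak lists show only 1 of the 2 partners.

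Of the 85 regions, 84 lay on chromosomes for which RefSeq promoter windows of GRCm38.p6, the assembly behind mm10, were at hand, and 11 of the 84 overlapped such a window. A window runs from 250 bp before to 50 bp after a transcription start. The promoters of the 6 highest-ranked of these 11 regions follow, as the 250 bases before the start, 5′ to 3′ on the strand of the gene. They are shown because the regions overlap them, in part or whole, and the HIF1A positions lay 137 bp from the start at most. Capitals mark ACGTG and GCGTG (hypoxia element core), TGACGT (core of the cAMP response element, CRE, recognised by CREB and ATF factors) and ATGGCGG (part of the YY1 motif), each searched on both strands. A capital run of TGACGTCA is a pair of overlapping TGACGT matches on opposite strands.
Tpgs1: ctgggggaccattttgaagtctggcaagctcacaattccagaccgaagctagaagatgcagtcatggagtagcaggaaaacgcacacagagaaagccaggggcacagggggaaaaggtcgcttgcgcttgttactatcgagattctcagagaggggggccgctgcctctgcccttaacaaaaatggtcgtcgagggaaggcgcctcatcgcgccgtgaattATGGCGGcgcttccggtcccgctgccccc
Txndc15: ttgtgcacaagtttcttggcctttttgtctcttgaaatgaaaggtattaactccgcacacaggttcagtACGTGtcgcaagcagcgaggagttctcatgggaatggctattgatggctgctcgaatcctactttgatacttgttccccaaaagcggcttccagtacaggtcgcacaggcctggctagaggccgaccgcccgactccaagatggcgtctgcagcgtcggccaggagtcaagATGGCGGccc
Psmb5: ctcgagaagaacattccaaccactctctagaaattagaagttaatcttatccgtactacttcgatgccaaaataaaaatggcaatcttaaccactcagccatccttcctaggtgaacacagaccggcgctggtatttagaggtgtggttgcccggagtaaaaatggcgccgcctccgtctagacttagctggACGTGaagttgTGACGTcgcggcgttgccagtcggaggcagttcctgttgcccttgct
Dusp16: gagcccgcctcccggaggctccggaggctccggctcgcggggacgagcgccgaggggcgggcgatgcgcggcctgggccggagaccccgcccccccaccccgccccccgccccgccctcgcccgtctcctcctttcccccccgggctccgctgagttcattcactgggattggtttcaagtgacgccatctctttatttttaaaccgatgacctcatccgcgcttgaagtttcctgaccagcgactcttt
Dusp8: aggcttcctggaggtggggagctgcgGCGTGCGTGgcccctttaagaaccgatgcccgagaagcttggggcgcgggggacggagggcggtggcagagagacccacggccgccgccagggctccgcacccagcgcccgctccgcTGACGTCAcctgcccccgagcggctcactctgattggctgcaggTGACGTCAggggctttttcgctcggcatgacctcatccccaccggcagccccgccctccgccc
Slc25a25: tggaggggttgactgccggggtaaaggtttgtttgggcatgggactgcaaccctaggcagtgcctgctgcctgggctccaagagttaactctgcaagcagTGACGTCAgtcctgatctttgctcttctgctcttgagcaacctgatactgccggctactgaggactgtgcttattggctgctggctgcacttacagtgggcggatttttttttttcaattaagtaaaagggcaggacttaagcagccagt

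These sequences lie at chr10:79669189-79669438 (Tpgs1, plus strand), chr13:55714400-55714649 (Txndc15, plus), chr14:54617996-54618245 (Psmb5, minus), chr6:134792629-134792878 (Dusp16, minus), chr7:142095285-142095534 (Dusp8, minus) and chr2:32424067-32424316 (Slc25a25, minus). Tpgs1 encodes a subunit of a tubulin polyglutamylase, Txndc15 a thioredoxin domain protein and Psmb5 a catalytic subunit of the proteasome. Dusp16 and Dusp8 encode phosphatases that inactivate MAP kinases of the JNK and p38 type, and Slc25a25 a mitochondrial ATP-Mg/phosphate carrier. Positions are counted from the transcription start, with negative values upstream. At Tpgs1 the HIF1A position of replicate 2 was -39 at 4% O2 and -24 at 20% O2, and ATGGCGG matches began at -29 and, after the start, at 7. At Txndc15 the positions were -29 and -21, with an ATGGCGG match at -10, a GCGTG match at 5, after the start, and an ACGTG match at -181, outside the region. At Psmb5 they were -104 and -66, with an ACGTG match at -58, a TGACGT match at -47 and, outside the region, a GCGTG match at 17. At Dusp8 they were -96 and -63, with TGACGT matches from -107 and from -63 and GCGTG matches at -224 and -220, outside the region. At Slc25a25 both positions were -137, with TGACGT matches on both strands from -150 and no hypoxia element core in the 300 bp window. Dusp16, with positions of -40 and -30, held none of these motifs in the window. Among these 6 windows a hypoxia element core thus lay within the region at Txndc15 and Psmb5, and none did at Tpgs1, Dusp16, Dusp8 and Slc25a25. The bounds of the regions include the widening by 100 bp a side, so what counts as within a region depends on it.

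The other 5 promoters were those of Gm30695, a lncRNA gene, Mettl3, Zbtb11, Zfp882 and Gm2a. Mettl3 encodes the catalytic subunit of the writer of N6-methyladenosine in RNA, Zbtb11 and Zfp882 zinc finger proteins, and Gm2a the activator protein that presents a ganglioside for breakdown. Zbtb11 had overlapping TGACGT matches from -94, beside a HIF1A position of -95 at 4% O2 and -72 at 20% O2. Its ACGTG matches at -234 and -233, which form a CACGTG E-box, and its GCGTG match at -216 were farther away but within the region. Mettl3 had positions of -29 and -27, an ATGGCGG match at -103 and, outside the region, a GCGTG match at -190. Gm2a was bound at 48 and 35 bp after the start, with GCGTG matches at 31, within the region, and at -248, outside it. Zfp882 had positions of -20 and -43 and ATGGCGG matches at -5 and, outside the region, at -154. Gm30695 held none of the marked motifs.

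**Figure D1:**
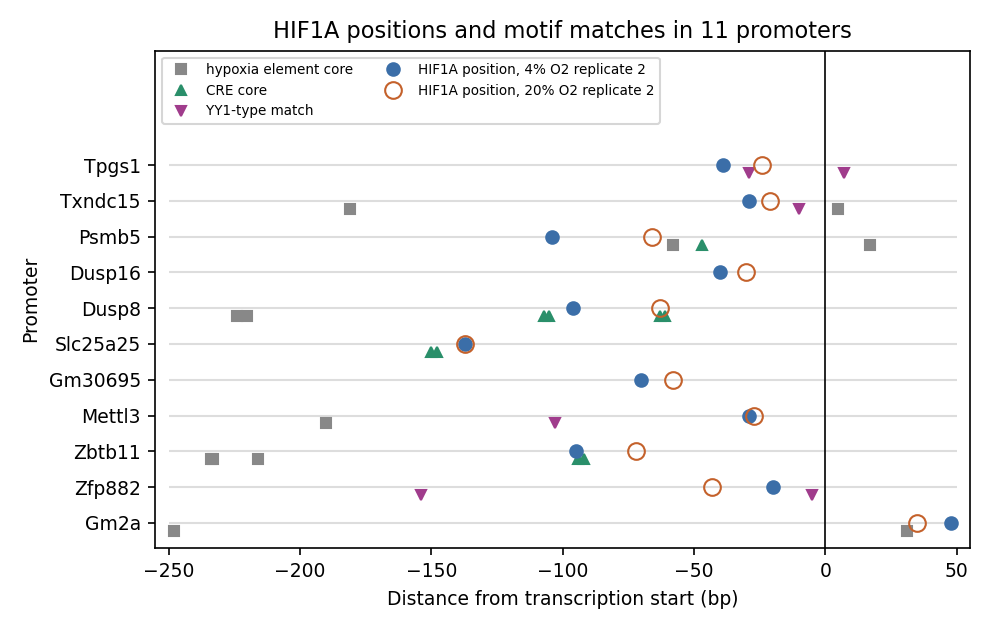
The 11 promoters that overlap a region are drawn one per line, by distance from the transcription start (bp, horizontal axis). Filled and open circles are the HIF1A positions of replicate 2 at 4% and 20% O2, and squares, upward and downward triangles are first bases of hypoxia element cores, CRE cores and YY1-type matches in the 300 bp window. The circles of a promoter lie 38 bp apart at most, and in 10 of the 11 promoters they lie upstream of the start.

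Over the whole 300 bp window, 6 of the 11 promoters (54.5%) held ACGTG or GCGTG on either strand, against 44.0% of 32585 promoter windows in all. Among windows that overlapped HIF1A regions of 4% O2, the share was 82.7% of 3349, and it was 64.1% of the 237 windows at regions of both oxygen levels with an ARNT peak. It was 78.8% of the 222 windows at regions of 4% O2 only without ARNT. TGACGT was present in 4 of 11 (36.4%), against 7.56% of all windows, 17.6% of those at any HIF1A region of 4% O2 and 29.1% of those at regions of both levels with ARNT. ATGGCGG was present in 4 of 11 (36.4%), against 4.07%, 10.2% and 19.4% in the same order. TGACGT or ATGGCGG was found in 8 of 11 windows. The share was 44.7% at regions of both levels with ARNT and 18.9% at regions of 4% O2 only without ARNT. Of the motifs searched, TGACGT and ATGGCGG stood furthest above their shares of all windows in these same 11 windows. Joining them, and marking them in the sequences and the figure, is thus not independent of the values. The joined share is a description, and nothing is read from its contrast with the other sets. The other motifs follow with their shares of all windows and of those at any HIF1A region of 4% O2. The palindromic E-box CACGTG, which also contains ACGTG, was in 1 of 11 (7.2% and 16.7%). CAGCTG was in 0 of 11 (16.4% and 14.4%). The GC box, GGGCGG, was in 6 of 11 (35.9% and 72%) and the CCAAT box in 5 (37.6% and 40.6%). The core that ETS factors bind, CCGGAA, was in 3 (15% and 31.2%). The AP-1 motif, TGACTCA, was in 1 (5.23% and 3.85%), as was AGATAA (11.2% and 4.51%), which GATA factors bind. GGTTCGA (the B box of tRNA genes) was in none of the 11 (0.918% and 1.31%). The same held for AGGGGGC from the CTCF motif (10.7% and 18.6%) and GCATGCG from the NRF1 motif (3.58% and 8.39%). Median GC content was 57.7% in the 11 windows, 53.0% in all windows and 63.0% in windows at any HIF1A region of 4% O2. The 11 windows are too few to tell these shares apart, no test was made over them, and a match is a stretch of letters and not a bound site.

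The strongest regions were described by the authors' score, a value of the peak caller on an unnamed scale that serves only within a list, and by the percentile rank of the best peak within its list (100 for the highest). The region at Tpgs1 (chr10:79669101-79669506) came first by the mean rank over the 4 HIF1A lists. Its scores were 86.2 and 49.8 in replicates 1 and 2 of 4% O2 and 114 and 172 in those of 20% O2, at ranks of 95.8, 88.4, 99.8 and 99.7. Txndc15 (chr13:55714521-55714730) followed with scores of 87.6 and 37.9 at 4% O2 and 44.7 and 96.0 at 20% O2, at ranks of 96.0, 84.6, 98.0 and 99.2. Both sites thus ranked highest in the lists of 20% O2 and lowest in 4% O2 replicate 2.

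The third region lay 937 bp from an end of the pseudogene Gm8504 (chr12:86652596-86653019), with ranks of 95.5 and 81.0 at 4% O2 and 99.6 and 99.3 at 20% O2. The fourth was inside Zfp704, a zinc finger gene (chr3:9500790-9501128), with ranks of 96.2, 83.3, 89.2 and 98.2. Psmb5 (chr14:54617984-54618290) came next, with scores of 53.3 and 23.1 at 4% O2 and 25.2 and 77.5 at 20% O2. These 5 were the only regions among the 85 with a mean rank of 89.0 or more.

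Places 6 to 14 had no promoter window of the table. Their nearest gene ends belonged to the lncRNA genes Gm34606, Gm40557, Gm19434 and A930024E05Rik, to the pseudogenes Gm18999, Gm2189 and Gm7441, and to the protein-coding genes Klrb1c and Hid1, at distances of 151 to 36763 bp. Among them the site near Gm18999 (chr19:61265450-61265650) had the highest score of the 85 in 20% O2 replicate 1, 116, with 166 in replicate 2, against 46.5 and 15.9 at 4% O2. The site near Gm7441 (chr13:13867170-13867370) had scores of 67.9 and 111 at 20% O2 and of 21.0 and 12.0 at 4% O2. Its ranks were 99.5 and 99.4 in the lists of 20% O2 and 70.1 and 48.7 in those of 4% O2. Scores of different lists are on separate scales, so these values place each site within its own list only.

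Places 15 to 25 held the promoters of Dusp16 and Dusp8 and regions inside Clvs1, Ccdc162, Msi2, Clic1 and Vps35l. Msi2 encodes an RNA-binding protein of progenitor cells, Clic1 an intracellular chloride channel protein and Vps35l a subunit of the retriever complex of endosomal sorting. The rest had their nearest gene ends at Gm42072, Gm13377, Gm32028 and Ndel1, a regulator of the motor protein dynein. Mean ranks of places 15 to 25 ran from 69.7 to 77.0. Dusp16 (chr6:134792553-134792768) had scores of 28.8 and 15.3 at 4% O2 and 17.1 and 22.5 at 20% O2. Dusp8 (chr7:142095260-142095480) had 22.2 and 11.8 at 4% O2 and 14.7 and 41.1 at 20% O2.

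As a group the 85 regions were of middling rank. Median ranks were 75.4 in 4% O2 replicate 1 (range 11.9 to 96.2), 32.2 in 4% O2 replicate 2 (0.227 to 88.4), 54.5 in 20% O2 replicate 1 (1.59 to 99.9) and 76.6 in 20% O2 replicate 2 (10.9 to 99.7). No region was at rank 90 or above in all 4 lists, 4 were at 75 or above in all, and 16 at 50 or above. In 4% O2 replicate 2 all 85 ranked lower than in 4% O2 replicate 1, a list of 42701 peaks against 13655. In the 2 replicate 2 lists, of 13655 and 13386 positions, 76 of the 85 ranked higher in the list of 20% O2 than in that of 4% O2 (89.4%). The same held for 75.6% of the 2534 regions of both levels with an ARNT peak. In the replicate 1 lists, of 42701 and 5393 peaks, 31 of the 85 did (36.5%), against 18% of the 2534. Ranks are places within separate lists and cannot show whether binding changed. Across the 85 regions the ranks of the 2 replicates were related with a Spearman rho of 0.689 (Pearson r 0.647) at 4% O2 and 0.692 (0.624) at 20% O2, and between oxygen levels rho was 0.347 to 0.491. These values are across regions that share their libraries and are a description.

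**Figure D2:**
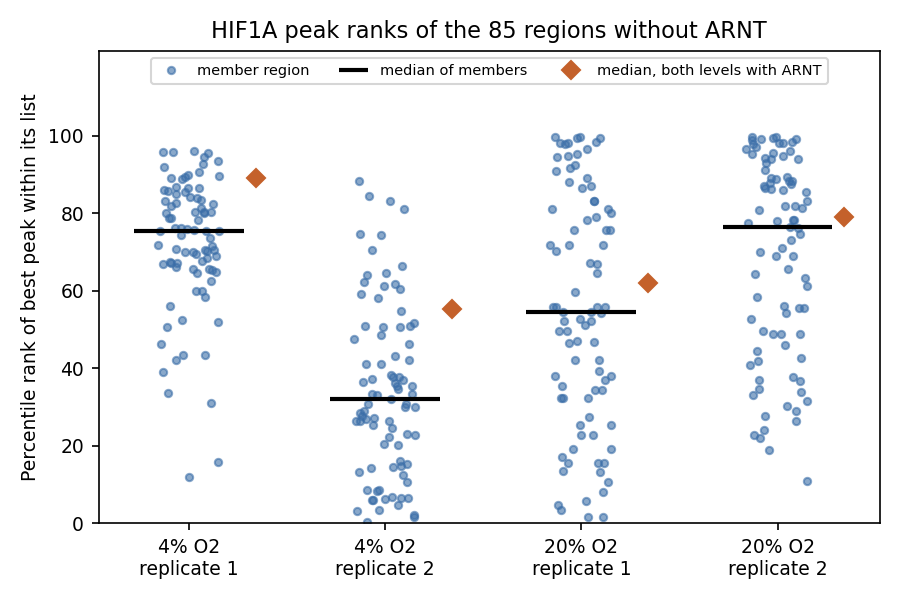
Each blue point is 1 of the 85 regions, placed by the percentile rank of its best peak within the HIF1A list named on the horizontal axis. Black bars are the medians of the 85 (75.4, 32.2, 54.5 and 76.6) and orange diamonds the medians of the 2534 regions of both oxygen levels with an ARNT peak (89.2, 55.3, 61.9 and 79.2), which lie above the bars in all 4 lists.

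The rule asks for overlap between the oxygen levels, so the distance between their positions is given as a description. In replicate 2 the positions of 4% and 20% O2 lay a median of 19 bp apart (quartiles 9 and 36, range 0 to 333), within 50 bp in 71 of the 85 regions and within 100 bp in 77. For regions of both levels with ARNT the median was 24 bp, and for 184 regions of 4% O2 only without ARNT that had a position in that 20% O2 list it was 28 bp. The overlap of a region with its 20% O2 counterpart was 154 bp at the least. The overlap between the 2 lists of an oxygen level, where the minimum of 1 bp and the widening also act, was not measured. Without widening 80 of the 85 remained, and with an overlap of 50% of the shorter interval 83 did. The regions were narrow, with a median width of 274 bp (201 to 747), against 401 bp for the regions of both levels with ARNT and 233 bp for those of 4% O2 only without ARNT. A wider region has more room for an ARNT peak, so width is tied to the rule.

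Whether a region of both oxygen levels was without ARNT depended mostly on a single list. Outside tRNA genes, 2619 HIF1A regions occurred at both levels, and ARNT at 4% O2 replicate 1 had a peak in 2479 of them (94.7%). ARNT at 20% O2 replicate 1 had a peak in 1811 (69.2%), ARNT at 4% O2 replicate 2 in 757 (28.9%) and ARNT at 20% O2 replicate 2 in 715 (27.3%). Of the 2619, 85 had a peak in 0 lists, 522 in 1, 1009 in 2, 790 in 3 and 213 in 4. Of the 522, 473 had it in ARNT at 4% O2 replicate 1 alone. Without that list 558 regions met the rule, and without HIF1A at 4% O2 replicate 2 or HIF1A at 20% O2 replicate 1 the numbers were 430 and 269. Leaving out any other single list gave 85 to 121 regions. Leaving out a HIF1A list also removed the reproducibility step for its oxygen level, since each region of the remaining list then counted. Per the file headers, the replicate 1 samples of both antibodies and oxygen levels shared a flow cell lane, and they were called against the same input of their oxygen level. In these lists alone, 620 regions met the rest of the rule, and in the replicate 2 lists alone 2786 did. Both counts are without the reproducibility step.

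**Figure D3:**
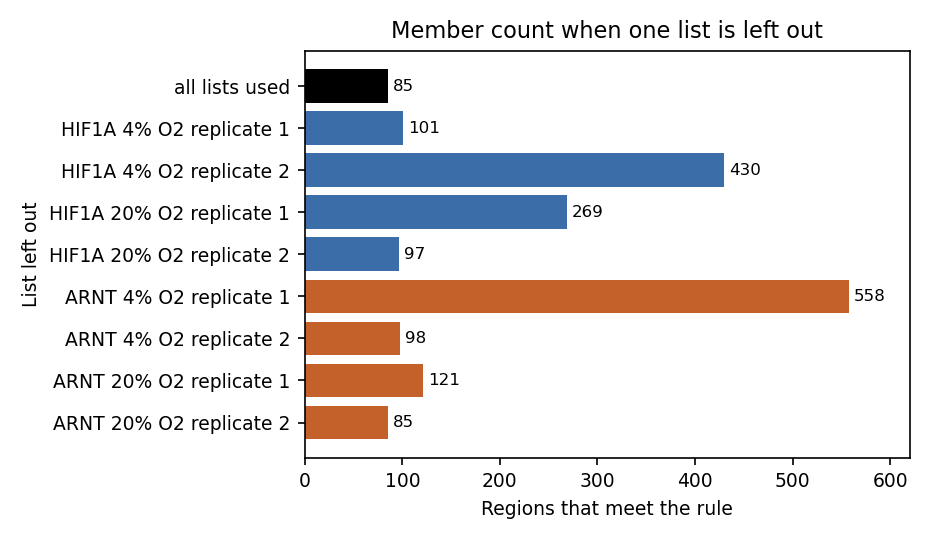
Bars give the number of regions that meet the rule (horizontal axis, from 0) when the peak list named on the left is left out. The black bar is the 85 regions with all 8 lists, and the longest is that without ARNT at 4% O2 replicate 1, with 558. Where a HIF1A list is left out, each region of the remaining list of that oxygen level counts, without the reproducibility step.

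The share without ARNT was set beside that of HIF1A regions of 4% O2 only. Before the tRNA step, 90 of 2641 (3.41%, 95% Wilson interval 2.78 to 4.17) had no ARNT peak, against 1160 of 10069 HIF1A regions of 4% O2 without a 20% O2 region (11.5%, 10.9 to 12.2). The intervals cover counting of regions only, and regions are not replicates. In the 4% O2 lists of replicates 1 and 2, the 1157 regions of 4% O2 only without ARNT had median ranks of 56.2 and 22.6, against 75.4 and 32.2 for the 85. The 8894 regions of 4% O2 only with ARNT had 83.2 and 56.3. Many regions called 4% O2 only still held a HIF1A peak of a 20% O2 list. Such a peak was in replicate 2 for 3950 of the 8894 and 184 of the 1157. In replicate 1 the numbers were 176 and 12.

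Since the rule kept only regions without an ARNT peak, distances to such peaks are tied to it and are given as a description. The nearest ARNT peak of any list was a median of 7237 bp away, from 93 bp near Gm2189 to 280675 bp near Klrb1c. It was within 1 kb of 14 of the 85 (16.5%, 95% Wilson interval 10.1 to 25.8), and 71 regions had none that close. Of the 1157 regions of 4% O2 only without ARNT, 363 had an ARNT peak within 1 kb (31.4%, 28.8 to 34.1), and the median distance was 4828 bp. Within 10 kb the shares were 55.3% and 61.7%. The nearest peak came from ARNT at 4% O2 replicate 1 for 56 regions, from replicate 2 for 21 and from 20% O2 replicate 1 for 8. The Tpgs1 and Dusp8 promoters had an ARNT peak close by, at 288 bp in 4% O2 replicate 2 and at 274 bp in 4% O2 replicate 1, while at the other 9 promoters the nearest was 3984 bp (Slc25a25) to 25488 bp (Mettl3) away. A region bound by both HIF1A and ARNT at 4% O2 lay within 10 kb of 18 of the 85 (21.2%), against 24.1% of the 4% O2 only regions without ARNT. The lists hold no read counts, so ARNT below the authors' calling threshold cannot be seen.

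**Figure D4:**
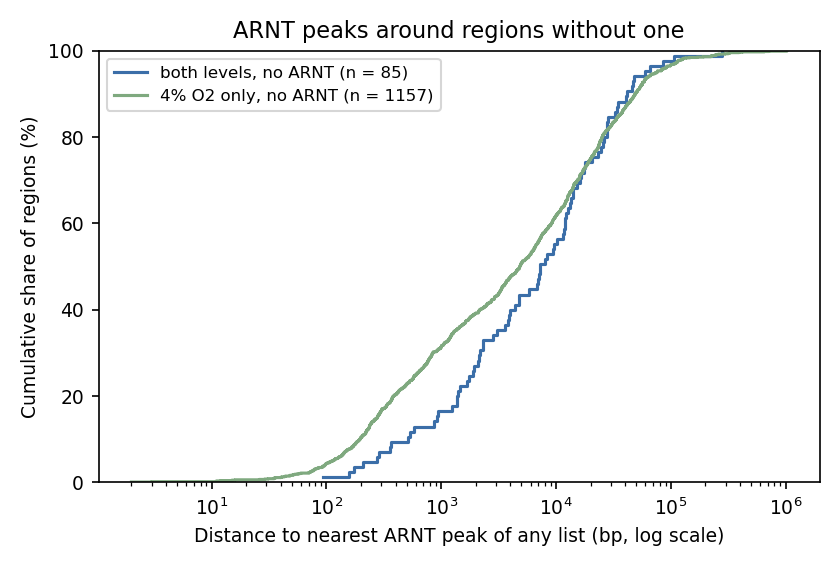
The horizontal axis is the distance to the nearest ARNT peak in any of the 4 lists (bp, log scale) and the vertical axis the cumulative share of regions (%). The line of the 85 regions of both levels lies below that of the 1157 regions of 4% O2 only up to about the 10 kb mark, with 16.5% against 31.4% at 1 kb, and the lines run together beyond it.

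By position the 85 regions lay mostly away from gene ends. Within 1 kb of an end of any annotated gene there were 21 (24.7%, 95% Wilson interval 16.8 to 34.8), inside a gene but farther from its ends 31 (36.5%, 27.0 to 47.1), and between genes 33 (38.8%, 29.2 to 49.5). Of all HIF1A regions of 4% O2, 35.2% were within 1 kb of a gene end. A listed transcription start lay within 1 kb of 13 of 84 regions here, and of 29.2% of the 12436 with promoter entries. That share was 10.2% for regions of both levels with ARNT and 26.4% for those of 4% O2 only without ARNT. The share within 1 kb of a gene end was 15.7% (14.3 to 17.1) for the 2534 regions of both levels with ARNT. For those of 4% O2 only it was 31.4% (28.8 to 34.1) without ARNT and 41.0% (40.0 to 42.1) with ARNT. The value for the 85 lay between those of the first 2 of these sets, nearer to the 31.4%. With protein-coding genes only, 13 of the 85 (15.3%, 9.16 to 24.4) were within 1 kb of an end, against 9.43%, 25.8% and 35.0% in the same order. Here the value lay nearer to the 9.43% of regions of both levels with ARNT than to the 25.8%. Which set the 85 lie nearer to thus turns with the genes counted. The intervals cover counting of regions only and do not decide between the sets. Between genes, the 38.8% was above the 24.0% of all HIF1A regions of 4% O2. It stood beside 33.1% of regions of both levels with ARNT and 23.8% of those of 4% O2 only without ARNT. No test was made, since regions of the same lists are not replicates. The 85 were spread over chromosomes 1 to 19, at most 8 on a chromosome (chromosome 6), with 0 on chromosome X. No pair of them lay within 100 kb of each other, and 38 of 85 (44.7%) had another HIF1A region of 4% O2 within 10 kb, against 42.1% of all.

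**Figure D5:**
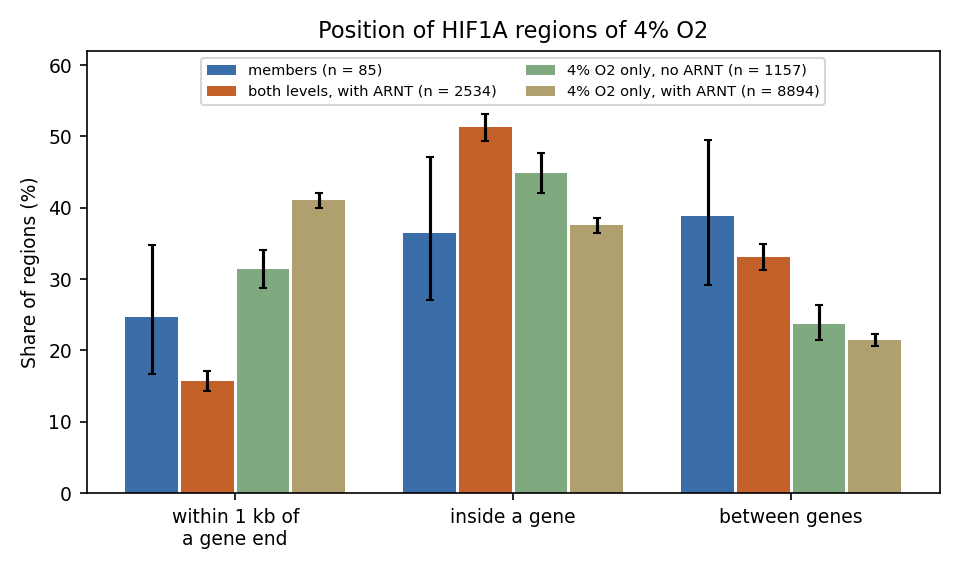
Bars give the share of HIF1A regions of 4% O2 (%, vertical axis) by position for 4 sets named with their numbers of regions, and error bars are 95% Wilson intervals. The 85 regions without ARNT (blue) stand at 24.7% near gene ends and 38.8% between genes.

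The nearest gene end belonged to a lncRNA gene for 37 of the 85 (43.5%, against 31.3% of all HIF1A regions of 4% O2). It belonged to a protein-coding gene for 36 (42.4% against 58.4%) and to a pseudogene for 8 (9.41% against 6.41%). A region inside a gene can lie nearer to an end of another gene, as that inside Zfp704 did. Counted by span instead, 37 of the 85 lay inside a protein-coding gene (43.5%, against 61.3% of all). A protein-coding gene had 1 of the 85 regions within 5 kb of an end in 32 of 21631 cases (0.148%), and none had more than 1. Among the 32 were Mov10, an RNA helicase, and Rhoc, a small GTPase, at a single region 0 and 29 bp from their ends. Zc3h4, a zinc finger protein of transcription control, had a region across its end at ranks of 66.9, 28.6, 55.8 and 95.4. Regions also lay inside Astn1, which acts in neuronal migration, with a mean rank of 56.5, inside Rbfox1, a splicing regulator, with 35.7, and inside Slit2, an axon guidance ligand, with 30.6. The median over the 85 was 57.0.

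Genes of 13 lists, chosen with earlier results of these data known, had almost none of the 85 regions. Of 320 list genes, 1 had a region within 5 kb of an end (the background is 0.148% of protein-coding genes). It was Hand2, a transcription factor of the sympathetic lineage from which neuroblastoma arises, 4003 bp from its nearer end (chr8:57328520-57328793). That region had scores of 29.2 and 6.11 at 4% O2 and 14.7 and 7.36 at 20% O2. The sympathoadrenal list thus had 1 of 20. The count was 0 for glycolysis (24 genes), oxygen sensing (15), immediate early genes (24), ribosomal proteins (50), translation factors (22), splicing factors (24), heat shock chaperones (20), the actin and tubulin cytoskeleton (24), oxidative phosphorylation (35), RNA polymerase III subunits and factors (19), other genes transcribed by RNA polymerase III (11) and genes of other tissues (32). HIF1A regions of 4% O2 of any kind, in contrast, lay within 5 kb of an end of 21 of the 24 glycolysis genes, 16 of the 24 immediate early genes and 18 of the 50 ribosomal protein genes, with a background of 24.7%. Regions of both levels with an ARNT peak did so at 7, 6 and 4 of them, against 544 of all 21631 protein-coding genes. At a background of 0.148%, a count of 0 is near the background for lists of this size, and nothing is read from it.

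The tRNA step set aside 5 regions, each overlapping a tRNA gene. RefSeq names these genes n-TGtcc3, n-TVaac8, n-TEctc13, n-TDgtc14 and n-TNgtt14. Their mean ranks ran from 46.4 to 89.2. Of the regions kept, the nearest to a tRNA gene was 38489 bp away, so no region lay close to the limit of 1 kb on either side.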

How the data were processed

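The tools BWA, Picard and MACS2 and the mouse build mm10 are named, without versions or settings, per the submitters' processing notes. The authors called peaks for each ChIP sample separately, and each deposited list gives a position and a score per peak. The score's scale is not named in the lists, and its lowest value is 2.00 to 2.19. The HIF1A replicate 2 lists hold 1 bp positions, from reads of combined sequencing runs per the labels' design text, and the other 6 list intervals, of 129 to 182 bp at the median. Peaks in the ARNT lists numbered 24942 and 9920 for 4% O2 and, for 20% O2, 7252 and 1808. Read depth is unknown, so no interval of a peak's value can be given.

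Lists were merged per antibody and oxygen level with Python 3.11.15 and pandas 2.3.3, and the set assignment was tested on simulated lists. The 1 bp entries were widened by 100 bp a side. Genes came from RefSeq's annotation of GRCm38.p6, where all 320 list entries matched, and the promoter table used has no chromosome 18 entries and is not complete. Regions named are the 25 highest by mean rank, the list gene with a region, and the regions at promoters. Genes named beyond these were chosen after their values were seen. The members and lists were chosen with earlier results of these data known. Alternatives changed overlap, width, score, the ARNT and tRNA criteria and the lists used, and leaving out single lists was added after seeing the data.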

Additional observations from a re-analysis of the deposited data

How the results depend on the processing

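The number of regions stayed between 71 and 90 with an overlap of 50%, with other widths of the 1 bp entries, with the upper 50% of each list, with no ARNT peak within 1 kb and with other tRNA distances. The upper 50% of each list gave 83 regions, of which 16 were among the 85, 1.28% of the HIF1A regions of 4% O2 and 45.8% within 1 kb of a gene end. With the upper 50% of each ARNT list there were 540 regions (4.25%) and 137 protein-coding genes within 5 kb. With ARNT reproducible regions as the criterion there were 1411 regions (11.1%) and 264 genes, with 14.0% of the regions within 1 kb of a gene end. Protein-coding genes only gave 15.3% within 1 kb. Leaving out a replicate number or a single list gave 85 to 2786 regions, 0.669% to 20.5% of the HIF1A regions, 14.7% to 32.7% within 1 kb of a gene end and 32 to 773 genes. The upper ends of the first, second and last come from the replicate 2 lists alone. Where a HIF1A group kept only 1 list, the reproducibility step fell away and each region of that list counted. The cause of these differences was not tested. No paired analysis was possible because the results come from no test. The numbers of regions within each replicate number were 620 and 2786. The score cutoffs of the authors limit what counts as absent.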
